A study of Crocodylus porosus with 60 samples.

Results

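The let-7 microRNAs were described in hatchling saltwater crocodiles (Crocodylus porosus) from 9 rows of a small RNA expression table of 654 rows. The rows were taken by name and not by their values: cPor-let-7a-5p and cPor-miR-let-7a-5p, cPor-let-7c-5p and cPor-miR-let-7c-5p, cPor-let-7f-5p, cPor-let-7g-5p, cPor-let-7i, cPor-let-7j-5p and cPor-let-7k-5p. The species prefix cPor- is left out below. All 9 passed the filter on low values that was applied before testing. A further row with a let-7 name, miR-let-7d-5p, was not in the selection, and its levels are given only for comparison. MicroRNAs are short RNAs that guide Argonaute proteins to messenger RNAs and lower their output.

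let-7 is one of the oldest animal microRNA families, and its members share the seed, the stretch near the 5′ end that pairs with targets. In animals its mature forms accumulate as cells differentiate, while the RNA-binding proteins LIN28A and LIN28B hold back the processing of its precursors in early and stem-like cells. Among its known targets in vertebrates are messages for LIN28 itself, RAS proteins, HMGA2 and cell cycle regulators, which is why the family is known as a brake on growth and an enforcer of the differentiated state. The letters after the name separate genes or mature forms that differ at few bases outside the seed, and let-7j and let-7k are names used for the chicken family.

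The table held 15 libraries of 10 tissues, made from total RNA of tissue pieces. For testis there were 2 libraries of runt hatchlings and 2 of normal hatchlings. For heart and for brain there was 1 library of a runt and 1 of a normal hatchling each. The other 7 tissues, spleen, liver, stomach, small intestine, cloaca, tongue and jaw skin, had 1 library each, with no size class given and therefore no replicate check. Runts, hatchlings that stayed small under the same rearing, were 386.2 ± 23.6 mm (SD) long at 359 days, while normal ones measured 740.2 ± 73.5 mm at 373 days, so size class and a difference in age go together in every such comparison. No group received a treatment. The size class of a library was given only by the column headers, and the column used for cloaca was headed cloacal gland. Nothing states that libraries of the same class came from separate animals, so the p-values cover the spread among the libraries and nothing more, and that spread may be technical within a class.

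Levels are in RPM, the usual depth-scaled unit of read abundance, as deposited. The step between low values put the depth between 540000 reads in jaw skin and 4760000 reads in the brain of a normal hatchling. Counting error on a let-7 level in 1 library was therefore small. An exact 95% Poisson interval reached 0.62% to 8.02% to either side, for counting error only. The lower end belongs to let-7j-5p, and it is too narrow if reads enter that row more than once, which was not tested. Tissue markers were highest where their tissue is labelled. The brain rows (miR-9, miR-124 and miR-128) summed to 48526 and 69990 RPM in the brain libraries and to at most 2711 RPM elsewhere. miR-122-5p of liver had 208151 RPM in liver. In testis it had 285.9 and 3152 RPM in the runt libraries, and 43.31 and 66.75 RPM in the normal ones. The striated muscle rows (miR-1, miR-133 and miR-499) summed there to 3362 and 714 RPM in the runt libraries, and to 201.8 and 85.35 RPM in the normal ones. The cause of these testis levels was not tested. miR-202-5p, of gonads, had 110.1 to 434.9 RPM in testis and at most 0.37 RPM elsewhere. In whole tissue, fewer cells of a type and less RNA per cell cannot be told apart.

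By their values the 9 rows hold 6 distinct sets of reads, and whether these sets have some reads in common was not tested. The 2 let-7a rows were equal in all 15 libraries, and so were the 2 let-7c rows. let-7j-5p was 2 times let-7a-5p in each of the 15 libraries, with ratios of 1.9997 to 2.0002. Rows that share reads in this way are 1 measurement, and let-7a and let-7j cannot be told apart in these values. let-7j-5p therefore stands below for both let-7a rows, and let-7c-5p for both let-7c rows. Since let-7j-5p is the higher row, the ranks, shares and sums that use it depend on this choice. Sums over all 9 rows count the shared reads more than once, so the mean, the range, the order of tissues and the share of listed rows are also given with each read set counted once.

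let-7 was abundant in every library. Among the 654 rows let-7j-5p ranked between 6 and 19, let-7i between 7 and 25, let-7g-5p between 9 and 33, let-7c-5p between 11 and 31, let-7f-5p between 16 and 43 and let-7k-5p between 16 and 48. The highest read set was let-7j-5p in 8 libraries, let-7i in 5 and let-7g-5p in 2. The let-7a-5p row, from the same reads as let-7j-5p, was highest in none. miR-let-7d-5p was lower than the read sets above, ranking between 35 and 65, with 793.9 ± 251.5 RPM (SD over 10 tissues).

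The 9 rows together had 59553 ± 20809 RPM (SD over 10 tissues), or 42184 ± 12913 RPM with each read set counted once. The sum was 67916 and 82763 RPM in the runt testis libraries and 70623 and 45223 RPM in the normal ones. It was 66054 RPM in the runt heart and 41205 RPM in the normal heart. In brain it was 53698 RPM in the runt and 99766 RPM in the normal hatchling. Levels within testis, heart and brain thus spread widely, and the pooled SD within these tissues was 0.46 on the log2 scale, or 1.37-fold.

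Among the tissues with 1 library the sum was 100950 RPM in cloaca, 70246 in jaw skin, 63998 in spleen, 52009 in tongue, 44610 in stomach, 36267 in liver and 30455 in small intestine. Ordered by tissue mean, cloaca came first, followed by brain, jaw skin, testis, spleen, heart, tongue, stomach, liver and small intestine. The ends of this order were 3.31-fold apart. With each read set counted once by the let-7j-5p row they were 2.72-fold apart. Cloaca and brain were still first and small intestine last, and spleen came before jaw skin and testis. With let-7a-5p in place of let-7j-5p they were 2.49-fold apart, and spleen came before brain. Of the 9 steps between neighbouring tissues, 0 exceeded the pooled SD within testis, heart and brain, taken over runt and normal libraries together. The tissues with 1 library have no measured spread of their own. After scaling for library composition brain replaced cloaca as the highest tissue, with 2.59-fold between the ends, and small intestine stayed lowest. That first place rested on 1 library. Scaling divides the normal brain, at 99766 RPM, by 0.7139 and the runt brain, at 53698 RPM, by 1.194, so it moves them further apart.

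**Figure D1:**
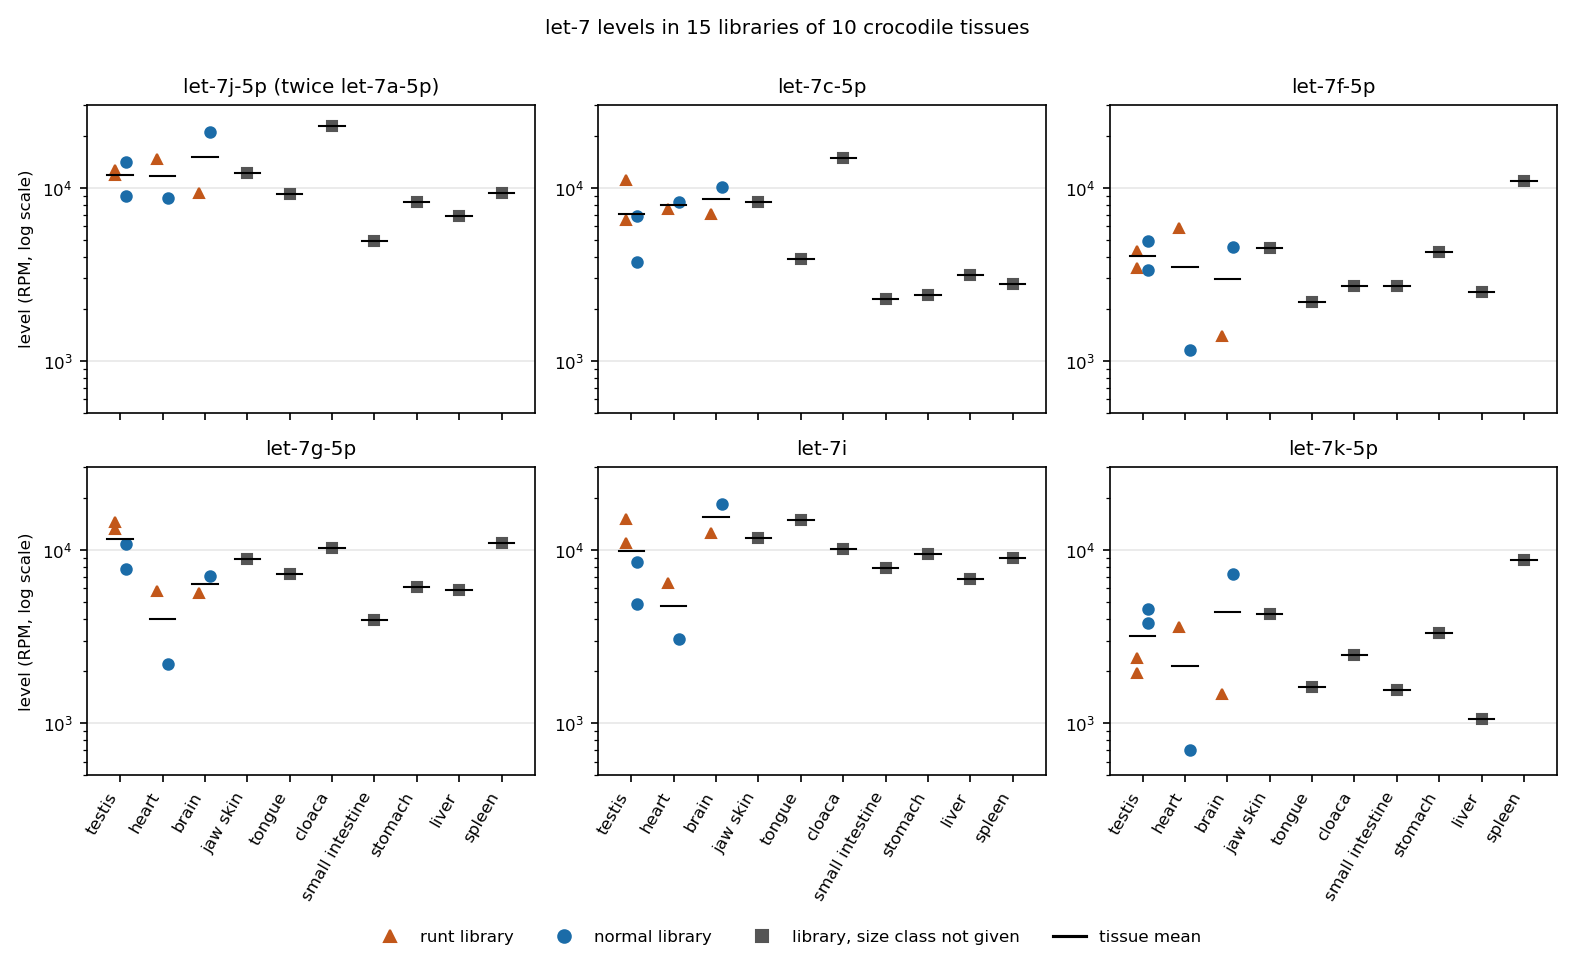
Level of each let-7 read set in every library (RPM, log axis), with a horizontal line at each tissue mean. In these unscaled levels let-7c-5p and let-7j-5p were highest in cloaca and lowest in small intestine. let-7f-5p and let-7k-5p were highest in spleen, and let-7i had its lowest mean in heart.

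By the let-7j-5p row, let-7a and let-7j, which cannot be separated here, were the most abundant read set in 8 of 15 libraries. By the let-7a-5p row they were so in none. let-7j-5p had 11928 and 12745 RPM in runt testis and 14014 and 8985 RPM in normal testis, 14647 RPM in runt heart and 8749 in normal heart, and 9304 RPM in runt brain and 21022 in normal brain. It had 22853 RPM in cloaca, 12227 in jaw skin, 9376 in spleen, 9199 in tongue, 8326 in stomach, 6880 in liver and 4913 in small intestine, a 4.65-fold range. In RPM, cloaca stood above brain, the tissue next in order, by more than the pooled SD within tissues of 0.49 on the log2 scale. The other neighbours did not differ by that much. The normal brain alone, at 21022 RPM, was near cloaca. Scaling for library composition divides cloaca by 1.393, the normal brain by 0.7139 and the runt brain by 1.194. After that scaling the brain mean lies above cloaca, so the step is one of unscaled levels only.

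let-7c-5p followed let-7j-5p over tissues and had a wider range of 6.49-fold. It had 6519 and 11058 RPM in runt testis and 6879.8 and 3707 RPM in normal testis, 7578 RPM in runt heart and 8297 in normal heart, and 7019 RPM in runt brain and 10158 in normal brain. It had 14849 RPM in cloaca and 8235 in jaw skin, against 3888 in tongue, 3149.6 in liver, 2769 in spleen, 2390.1 in stomach and 2287 in small intestine. The order therefore had cloaca, brain, jaw skin, heart and testis in its upper part and the digestive organs, liver and spleen in its lower part. In RPM, the steps from brain to cloaca and between testis and tongue exceeded the pooled SD of 0.53 on the log2 scale, and the others did not. Scaling for library composition, by the factors given above, leaves cloaca and brain within that SD, so their step is one of unscaled levels only. The step between testis and tongue was not examined after scaling.

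let-7g-5p was highest in testis. It had 13313 and 14559 RPM in runt testis and 10839 and 7789 RPM in normal testis, a mean of 11625 ± 2988 RPM (SD, n = 4). It had 5777 RPM in runt heart and 2190.4 in normal heart, and 5623 RPM in runt brain and 7116 in normal brain. In RPM, all 4 testis libraries thus lay above all heart and brain libraries. Scaling for library composition divides the second runt testis library by 1.685 and the normal brain by 0.7139, so the separation from brain is one of unscaled levels only. Spleen, with 11004 RPM, and cloaca, with 10232 RPM, were as high as testis within its spread, followed by jaw skin with 8873, tongue with 7227, stomach with 6097, liver with 5882 and small intestine with 3921 RPM. In RPM, the step between liver and heart was the only one beyond the pooled SD of 0.55 on the log2 scale. It was not examined after scaling.

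let-7i was lowest in heart and highest in brain and tongue. In testis it spanned much of the range, with 11029 and 15202 RPM in the runt libraries and 8474 and 4874 RPM in the normal ones. It had 6416 RPM in runt heart and 3057 in normal heart, and 12573 RPM in runt brain and 18461 in normal brain, so both heart libraries lay below both brain libraries. Tongue had 14811 RPM, jaw skin 11726, cloaca 10126, stomach 9520.5, spleen 9020.3, small intestine 7877 and liver 6778 RPM. No neighbouring tissues in this order differed beyond the pooled SD of 0.66 on the log2 scale.

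let-7f-5p and let-7k-5p were highest in spleen and spread widely within tissues. let-7f-5p had 10969 RPM in spleen and let-7k-5p had 8715 RPM there, while in the tissue next in order let-7f-5p had 4469 RPM (jaw skin) and let-7k-5p had 4384 ± 4127 RPM (brain, SD, n = 2). In the other single-library tissues let-7f-5p had 4254 RPM in stomach, 2714 in cloaca, 2694 in small intestine, 2491 in liver and 2186 in tongue. let-7k-5p had 4254 RPM in jaw skin, 3306 in stomach, 2472 in cloaca, 1609.7 in tongue, 1562 in small intestine and 1058 in liver, so that both were comparatively low in tongue and liver. Their pooled SDs within testis, heart and brain were 0.93 and 1.14 on the log2 scale, the widest of the 6 read sets. In RPM, spleen exceeded the next tissue by more than that for let-7f-5p but not for let-7k-5p. Scaling for library composition divides spleen by 1.114 and stomach by 0.7972. Stomach then comes next for let-7f-5p, and the step is under 0.93, so it is one of unscaled levels only.

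In testis let-7f-5p had 4298 and 3454 RPM in the runt libraries and 4945 and 3374 RPM in the normal ones, and let-7k-5p had 2381 and 1941 RPM in the runt libraries and 4577 and 3805 RPM in the normal ones. In heart let-7f-5p had 5830.2 RPM in the runt and 1164 RPM in the normal hatchling, and let-7k-5p had 3581 RPM in the runt and 701.1 RPM in the normal hatchling. In brain let-7f-5p had 1391 RPM in the runt and 4526 RPM in the normal hatchling, and let-7k-5p had 1466 RPM in the runt and 7303 RPM in the normal hatchling. The normal heart held the lowest level of both over all 15 libraries, 9.43-fold under the highest library for let-7f-5p and 12.4-fold under it for let-7k-5p.

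The make-up of the let-7 total differed between libraries. Shares count each read set once, with let-7j-5p standing for let-7a. let-7j-5p took 18.1% (spleen) to 36.2% (normal heart) of let-7, let-7c-5p 5.34% (spleen) to 34.3% (normal heart), and let-7i 12.7% (normal heart) to 38.1% (tongue). let-7g-5p took 9.07% (normal heart) to 26.9% (a runt testis library), let-7f-5p 3.72% (runt brain) to 21.2% (spleen) and let-7k-5p 2.9% (normal heart) to 16.8% (spleen). Spleen and the normal heart were the extremes for several read sets. The ratio of let-7c-5p to let-7f-5p was 1.3 in the runt heart and 7.13 in the normal heart, so the 2 heart libraries differed strongly in it. It was lowest in spleen, at 0.252, and its range over the libraries was 28.3-fold, beside 3.31-fold for the sum.

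**Figure D2:**
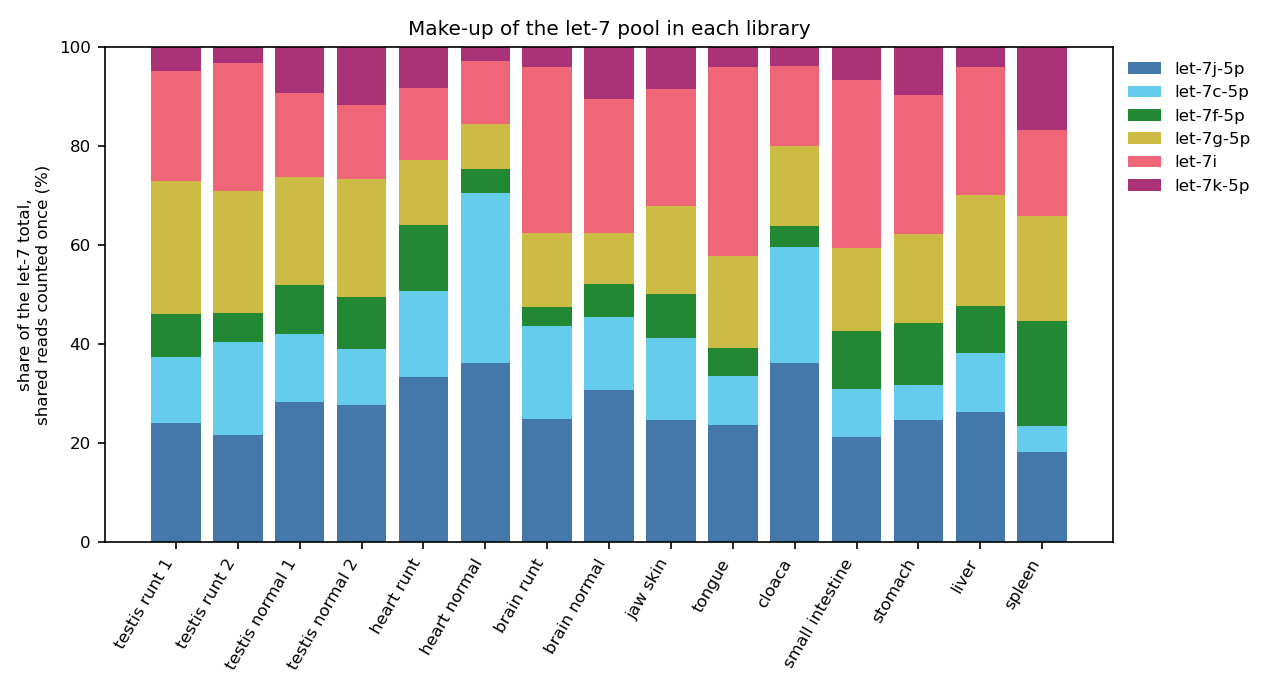
Share of each let-7 read set in the let-7 total of every library (percent, shared reads counted once by the let-7j-5p row, with every bar summing to the whole). let-7c-5p took 5.34% in spleen and 34.3% in the normal heart, and let-7i took 38.1% in tongue.

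The levels of the read sets over the 10 tissues fell into a close pair, another close pair and 2 that followed neither closely. On log2 tissue means, Pearson's r was 0.91 between let-7j-5p and let-7c-5p and 0.85 between let-7f-5p and let-7k-5p. It was 0.02 between let-7j-5p and let-7f-5p, -0.20 between let-7c-5p and let-7f-5p and -0.10 between let-7f-5p and let-7i. let-7g-5p and let-7i had r of 0.48. These values describe 10 points that share 1 composition per library, and reads of near-identical members may be exchanged between rows in mapping, which was not tested.

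Since RPM is a share, a row that takes much of a library leaves less for others. The most abundant row of the table, miR-N444, which carries no family name, took 2.01% of RPM in spleen and 60% in a normal testis library. The 9 let-7 rows took 3.05% (small intestine) to 10.1% (cloaca) of the RPM total and 4.12% (small intestine) to 16.2% (normal brain) of the listed rows. Without miR-N444 their share of the listed rows was 4.57% (small intestine) to 25.8% (normal brain). With each read set counted once, let-7 took 3.15% to 11.1% of the listed rows, and 3.49% to 17.7% without miR-N444, with the same libraries at the ends. The normal testis library with the most miR-N444 moved most: let-7 was 5.55% of its listed rows, which ranked 13 of 15 libraries, and 21.0% without miR-N444, which ranked 2.

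**Figure D3:**
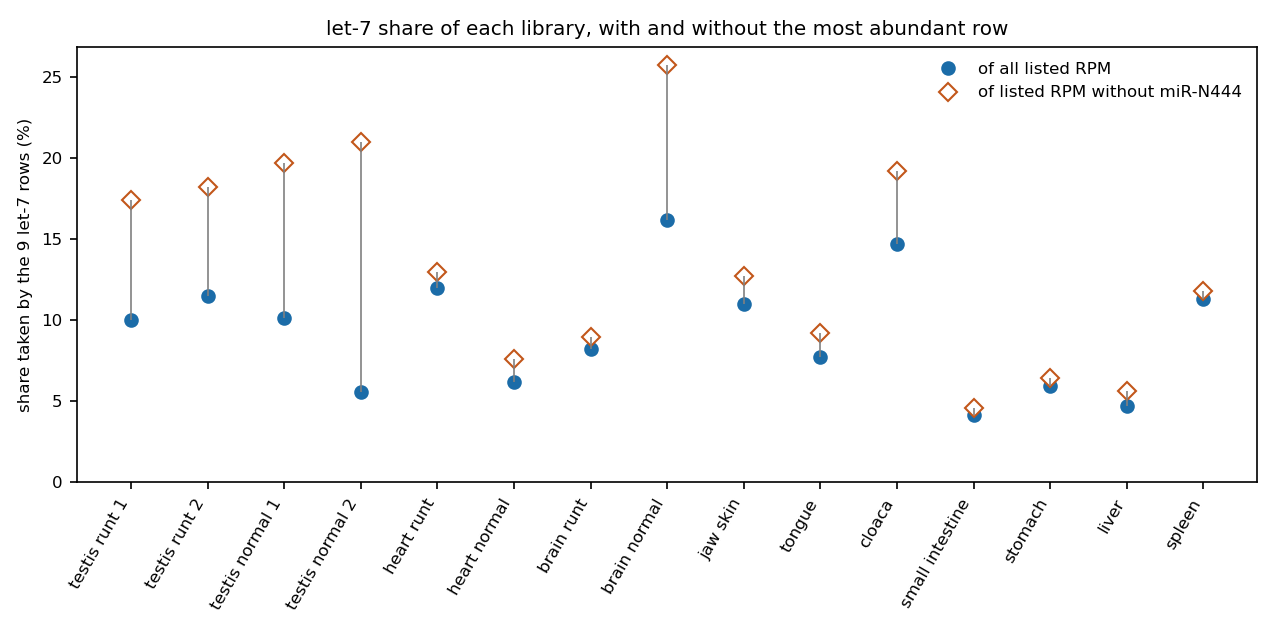
Share of the 9 let-7 rows in the listed RPM of each library (percent), with all listed rows (filled circles) and without miR-N444 (open diamonds). The normal testis library numbered 2 has 5.55% with miR-N444 and 21.0% without it, and small intestine is lowest both ways, at 4.12% and 4.57%.

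Tissues were compared where they had more than 1 library, with limma on log2(scaled RPM + 1) over all rows that passed the filter and Benjamini-Hochberg adjustment at 0.05. Between testis and heart, 1 of the 9 rows passed, in a comparison in which 33.9% of 319 tested rows did (23.2% higher in testis and 10.7% lower). let-7g-5p rose, with a log2 fold change of 1.60 ± 0.56 (SE, testis over heart, 4 against 2 libraries; limma adjusted p = 0.04382). This call did not hold in 7 of 18 alternative settings, among them size class as a term (limma adjusted p = 0.05701). Without the normal heart library the log2 fold change was 0.75 (limma adjusted p = 0.4503), without the first runt testis library 1.45 (0.1167), without the first normal testis library 1.54 (0.1078) and without the second normal testis library 1.56 (0.08671). Of the other read sets let-7i had a log2 fold change of 0.97 ± 0.53 (limma adjusted p = 0.1952), and it passed when levels were scaled to the listed total without miR-N444 (1.66, limma adjusted p = 0.03027). The median log2 fold change was -0.01 over the 9 rows, or 0.69 with 1 row per read set, and 0.23 over all tested rows.

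Between testis and brain, 0 of the 9 rows passed, while 45.1% of 319 tested rows did (27% higher in testis and 18.2% lower). The lowest adjusted p belonged to let-7i, with a log2 fold change of -0.90 ± 0.53 (SE, testis over brain, limma adjusted p = 0.1968), and let-7g-5p had 0.68 ± 0.56 (limma adjusted p = 0.3701). Before adjustment 0 of the 9 had a p under 0.05, while 159 of the 319 tested rows had. The intervals were wide: that of let-7k-5p ran between -2.45 and 1.88 on the log2 scale. The median was -0.41 over the 9 rows, or -0.35 with 1 row per read set, and 0.17 over all tested rows.

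Between heart and brain, 1 of the 9 rows passed, with 22.3% of 319 tested rows passing (7.52% higher in heart and 14.7% lower). let-7i fell in heart, with a log2 fold change of -1.87 ± 0.61 (SE, heart over brain, 2 libraries each; limma adjusted p = 0.04664). It kept its sign in 18 of 18 alternative settings, but it passed in only 4. With size class as a term it was -1.73 (limma adjusted p = 0.08551). Without the normal heart library it was -1.12 (limma adjusted p = 0.3327), without the normal brain library -1.12 (0.2785) and without the runt brain library -2.36 (0.05048). With each of the 4 testis libraries left out in turn the adjusted p was 0.05957 to 0.1266, and of the 8 libraries the call held only without the runt heart. All 9 rows had log2 fold changes under 0 in this comparison, and let-7f-5p was nearest to 0 at -0.04 ± 0.95. The median was -0.40 over the 9 rows, or -0.66 with 1 row per read set, against 0 over all tested rows. The comparisons of testis, heart and brain share libraries and are not independent of each other.

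**Figure D4:**
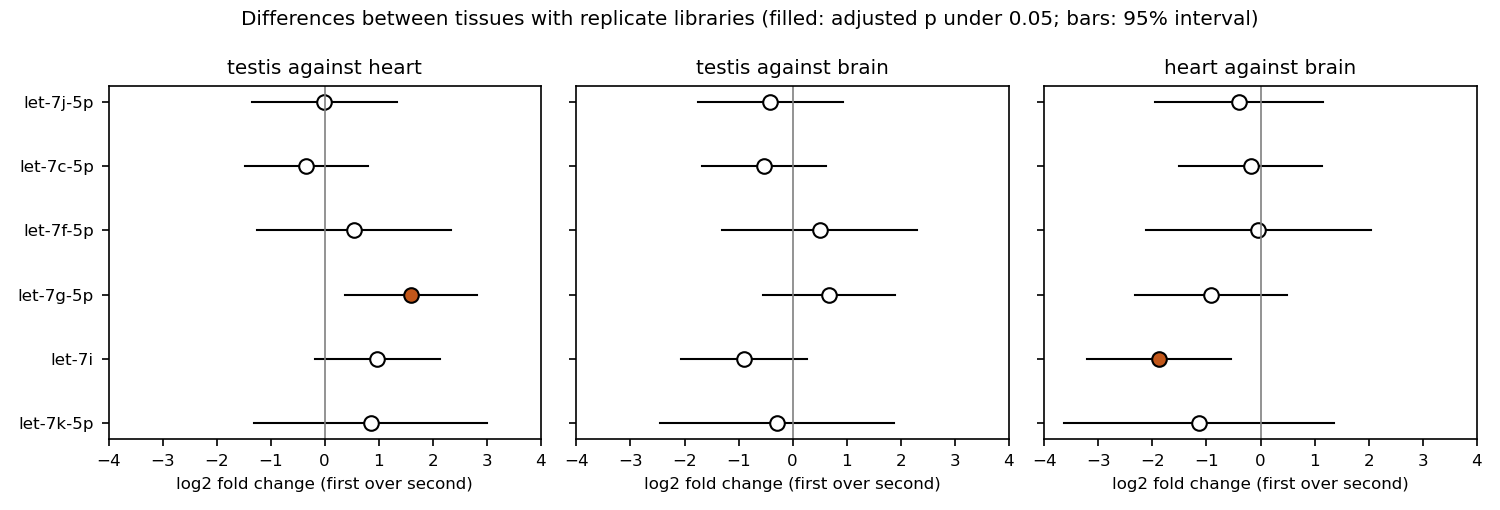
Log2 fold change of each let-7 read set between the 3 tissues with replicate libraries (the tissue named first over the other), with 95% intervals and filled points where the limma adjusted p is under 0.05. The filled points are let-7g-5p at 1.60 in testis over heart and let-7i at -1.87 in heart over brain.

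In levels alone, without scaling, few read sets were separated by tissue. The RPM of let-7g-5p did not overlap between testis and heart or between testis and brain, and that of let-7i did not overlap between heart and brain. For all tested rows the share without overlap was 43.6%, 52.4% and 46.1% in these 3 comparisons, so non-overlap was common and reads as no more than a description.

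The labels ask what separates runts from normal hatchlings. A fit over the 8 libraries of these 3 tissues allowed for tissue and took 1 runt difference as common to all 3. In it 0 of the 9 let-7 rows and 0% of 293 tested rows passed limma's test. Before adjustment 22 rows had a p under 0.05, none of them let-7 rows. The largest let-7 difference was that of let-7k-5p, with a log2 fold change of -1.04 ± 0.77 (SE, runt over normal, limma adjusted p = 0.7482). Without the normal heart library it was -2.08, and without the runt heart library -2.20. The heart library left over adds nothing to the estimate, so both values come from testis and brain and are not separate checks. In heart let-7k-5p moved the other way (log2 difference 2.35 in RPM). let-7g-5p and let-7i were near 0, at -0.01 ± 0.49 and 0.06 ± 0.46, with intervals of -1.08 to 1.06 and -0.96 to 1.08. Each is an average over tissues that moved in opposite ways, which also widens the interval. In RPM, the log2 difference was 1.40 in heart and -0.34 in brain for let-7g-5p, and 1.07 and -0.55 for let-7i. A value near 0 here therefore does not show that the classes were alike in each tissue.

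Heart and brain, with 1 library of each class, moved in opposite ways for 5 of the 6 read sets. In heart the runt was higher for let-7k-5p (5.11-fold), let-7f-5p (5.01-fold), let-7g-5p (2.64-fold), let-7i (2.1-fold) and let-7j-5p (1.67-fold), while let-7c-5p stood at 0.913-fold. In brain the runt had a lower level of all 6, at 0.201-fold for let-7k-5p, 0.307-fold for let-7f-5p, 0.443-fold for let-7j-5p, 0.681-fold for let-7i, 0.691-fold for let-7c-5p and 0.79-fold for let-7g-5p. let-7k-5p and let-7f-5p had the most extreme ratios in both tissues and let-7c-5p was among the read sets nearest to 1 in both. These are ratios of 1 library to 1 library, with no replicate check and no scaling for library composition. The share of all rows that moved in opposite ways was not counted, so the pattern is not shown to be particular to let-7.

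miR-126-5p, the endothelial marker, moved the same way in these libraries. It had 11283 RPM in the runt heart and 3049 RPM in the normal heart, and 759.2 RPM in the runt brain and 1892 RPM in the normal brain. Its level in spleen, where let-7f-5p and let-7k-5p were highest, was 10510 RPM. The blood cell rows miR-223 and miR-150 summed to 4069 RPM in the runt heart and 2279 RPM in the normal heart, to 824.2 RPM in the runt brain and 850.6 RPM in the normal brain, and to 37523 RPM in spleen. The summed miR-200 and miR-145 rows also moved this way. They had 16558 RPM in the runt heart and 3906 in the normal heart, and 2809 and 3179 RPM in the runt and normal brain. So did miR-122-5p, with 919.6 and 112.6 RPM in the runt and normal heart, and 1.9 and 2.31 RPM in brain. The small intestine rows (miR-215 and miR-194) had 117.8 and 3.45 RPM in the runt and normal heart, and 4.27 and 13.88 RPM in brain. The brain rows had 1446 and 920.6 RPM in heart, and 48526 and 69990 RPM in brain. The cause of these heart levels was not tested. In RPM, the marker sums of striated muscle and stratified epithelium did not move this way, and neither did miR-202-5p. All these directions are of unscaled levels. The stratified epithelium rows had 103.4 and 68.75 RPM in the runt and normal brain. Scaling divides these by 1.194 and 0.7139, which turns their direction. In brain the blood cell rows differed little, and miR-122-5p rested on few reads, each worth 0.4742 RPM in the runt and 0.2102 RPM in the normal brain. The direction was thus not particular to the endothelial row. The part of vessels or blood cells in the let-7 levels was not tested. Depth also differed, at 3140000 reads in the runt heart and 870000 in the normal heart, and at 2110000 reads in the runt brain and 4760000 in the normal brain.

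**Figure D5:**
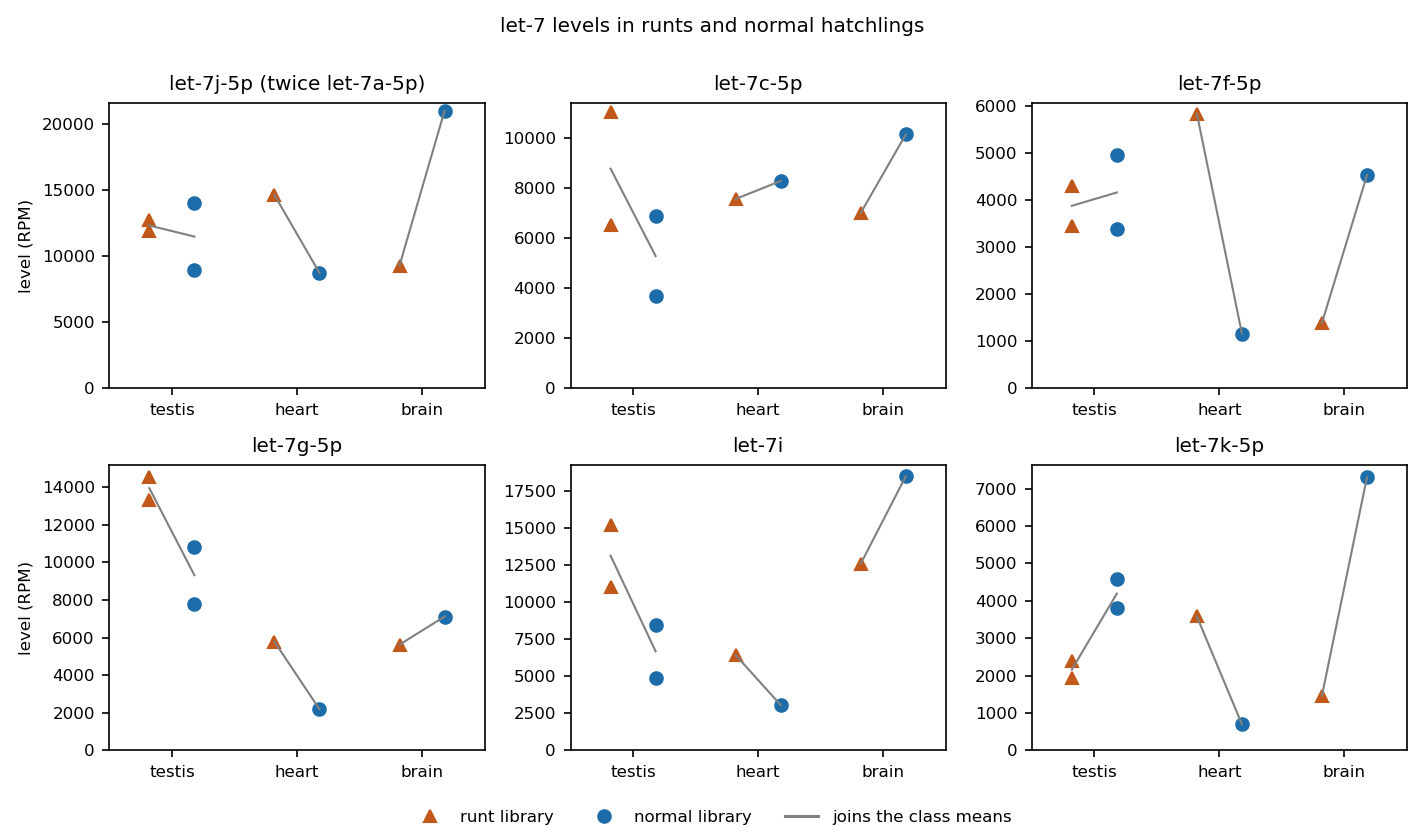
Level of each let-7 read set (RPM, axis beginning at 0) in runt and normal libraries of testis, heart and brain, with grey lines joining the class means. let-7k-5p was 3581 RPM in the runt heart and 701.1 RPM in the normal heart, and 1466 RPM in the runt brain and 7303 RPM in the normal brain.

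Within testis, the tissue with 2 libraries of each class, 0 of the 9 rows passed, and 5.13% of 234 tested rows did (2.99% higher in runts and 2.14% lower). Before adjustment 1 of the 9, let-7k-5p, had a p under 0.05, as had 83 of the 234 tested rows. let-7k-5p came nearest to the threshold, with both runt libraries below both normal libraries and a log2 fold change of -1.55 ± 0.34 (SE, runt over normal, limma adjusted p = 0.05423). It passed in 2 of 12 alternative settings: when levels were scaled to the listed total without miR-N444 (-1.56, limma adjusted p = 0.04531) and without the second runt library (-1.21, limma adjusted p = 0.04918). It was negative in all 12, between -2.0 and -0.96.

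let-7g-5p and let-7i were higher in RPM in both runt testis libraries than in both normal ones, as 50% of all tested rows had ranges that did not overlap. The second runt library had a scaling factor of 1.685, and the normal library with 60% miR-N444 had one of 0.525. After scaling, the log2 fold change was 0.00 ± 0.27 for let-7g-5p and 0.41 ± 0.24 for let-7i (limma adjusted p = 0.9991 and 0.2786). The higher RPM of these 2 read sets in runt testis was therefore not a called difference. The remaining read sets had log2 fold changes of -0.68 ± 0.30 (let-7f-5p), -0.46 ± 0.25 (let-7j-5p) and 0.15 ± 0.28 (let-7c-5p).

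The difference of the runt effect between testis and the mean of heart and brain was tested with an interaction term, in which the 4 testis libraries give the spread. Of the let-7 rows 0 passed, as against 1.02% of 293 tested rows, and before adjustment 0 of the 9 and 59 of the 293 tested rows had a p under 0.05. let-7k-5p had the largest difference, -1.56 ± 0.62 on the log2 scale (limma adjusted p = 0.292). The median over the 9 rows was -0.23, or -0.37 with 1 row per read set, beside -0.18 over all tested rows.

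The partners of let-7 in other vertebrates were matched by name in 6 rows. miR-98 has the let-7 seed, miR-99, miR-100 and miR-125b are encoded next to let-7 genes, and miR-202 has been listed with the family and is known from gonads. miR-202-5p passed the filter on low values only through testis, so its comparison of testis with heart and brain is given as levels and not as a test. It had 127.3 and 110.1 RPM in runt testis, 434.9 and 338.9 RPM in normal testis, 0.21 RPM in the normal brain, and it is listed at 0 in both heart libraries and the runt brain library, where 0 allows up to 3 reads. None of the other partner rows passed between testis and heart or between testis and brain, where 33.9% and 45.1% of all tested rows did. Between heart and brain 0 of 6 passed, beside 22.3% of all tested rows. miR-202-5p, near 0 in both tissues, could not have passed there. Between runts and normal hatchlings over the 8 libraries 0 of 6 passed, beside 0% of all tested rows. In testis 1 of 6 fell in runts, miR-202-5p, with a log2 fold change of -2.28 ± 0.37 (SE, limma adjusted p = 0.04426). Of all tested rows 5.13% passed there, and 2.14% were lower in runts.

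miR-98-5p was far lower than let-7, with 44.8 RPM in liver to 193.4 RPM in jaw skin by tissue mean. miR-125b-5p, with 14787 RPM over tissues, was more abundant than any single let-7 row, the highest of which was let-7j-5p with 11255 RPM. It was highest in cloaca (26339 RPM) and lowest in small intestine (5709 RPM), as let-7j-5p and let-7c-5p were. Its r to the let-7 sum over the 10 tissues was 0.79. The second miR-125b row differed from it: it was lower, with 2221 RPM over tissues, was highest in testis (5254 RPM) and had r of 0.44. miR-99-5p and miR-100-5p, at 790.7 and 1002 RPM over tissues, had r of 0.30 and 0.07. No partner row other than miR-202-5p passed in any comparison.

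The rows most like the let-7 sum over the 10 tissues, by Pearson's r on log2 tissue means among 310 rows searched, were miR-let-7d-5p (0.86), miR-N38 (0.84), miR-449b-5p (0.83), miR-221-5p (0.82) and miR-N308 (0.80). For let-7j-5p the nearest were miR-let-7d-5p (0.90), miR-N38 (0.88) and miR-125b-5p (0.84), and for let-7c-5p they were miR-let-7d-5p (0.83), miR-N298 (0.83) and miR-125b-5p (0.82). let-7d, outside the selection, thus followed the let-7a and let-7c levels. For let-7f-5p the nearest were miR-16-5p and miR-16a-5p (0.88 each) and miR-16c (0.75), all highest in spleen. miR-16-5p and miR-16a-5p had the same level in spleen (513.3 RPM) and in tongue (56.74 RPM). They may therefore be 1 measurement, which was not tested. For let-7k-5p they were miR-98-5p (0.87), miR-N79 (0.77) and miR-184-5p (0.74).

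For let-7g-5p the nearest rows were miR-N24 (0.83), miR-N569 (0.73) and miR-N140 (0.72), and for let-7i they were miR-N481 (0.80), miR-N34 (0.76) and miR-222a (0.74). Rows numbered with an N carry no family name, and several were low, such as miR-N38 with at most 22.5 RPM in any tissue mean. A search over 310 rows with 10 points finds high values of r by its nature, so these rows are named as a description and without a p-value.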

How the data were processed

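Per the labels' protocols, total RNA was isolated with Trizol and column kits and small RNA libraries were prepared for Illumina sequencing with a commercial kit. The authors deposited a table of RPM whose first line, per the file headers, names miRDeep2 (its quantifier, 2_0_0_8). bedtools 2.26.0, Bowtie 1.2.0 and bcl2fastq 2 stand in the submitters' processing notes, which do not say what each did. The build of the genome and the total used for RPM are not given in the sources used here. The 60 samples carry 15 library names, 4 samples each, with 1 column per name, and 1 of 16 value columns matched no sample and was not used. Library classes were taken from the headers, since the labels do not give them per sample.

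Between 89.1% and 94.2% of low values were whole multiples of the worth of 1 read within 0.1 reads, so values were treated as RPM and not as counts. limma 3.58.1 in R 4.3.3 was run on log2(scaled RPM + 1), the variance trend following intensity. Scaling was a trimmed mean of log ratios (30% of ratios and 5% of levels trimmed). Tested rows had to reach 10 RPM in 2 or more of the fitted libraries. Tests were two-sided, with Benjamini-Hochberg adjustment at 0.05. Tissue comparisons used all 15 libraries. Fold changes on this scale understate low rows. The limma steps were run on simulated data for testis against heart and for runt against normal testis only, and the outcome is not given here. Named rows were all let-7 rows, partners and tissue markers matched by name, the 5 rows most like the sum and the 3 most like each read set, and the most abundant row. Members and lists were chosen with earlier results of these data known. Alternatives covered scaling, pseudocount, filter, trend, fitted samples, size class as a term and each replicate library left out. Sequences and positions were not used here.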

Additional observations from a re-analysis of the deposited data

Results flagged for a closer look

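In 1 runt and 1 normal library each, heart and brain differed in opposite directions for 5 of the 6 let-7 read sets. The log2 difference in RPM, runt minus normal, was 2.35 in heart and -2.32 in brain for let-7k-5p, and 2.32 in heart and -1.70 in brain for let-7f-5p. It was 1.40 in heart and -0.34 in brain for let-7g-5p, 1.07 in heart and -0.55 in brain for let-7i, and 0.74 in heart and -1.18 in brain for let-7j-5p. The difference between heart and brain was not tested, since neither tissue has more than 1 library of a class. The share of all rows that differed in opposite directions was not counted. The endothelial row miR-126-5p moved in the same directions. So did the marker levels of brain, liver, small intestine, stomach (miR-200 and miR-145) and blood cells. Those of striated muscle, stratified epithelium and testis did not. These directions are of unscaled RPM, and that of stratified epithelium depends on scaling. What they share with these differences was not tested.

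Testis also differed from 1 of these tissues for 3 read sets. Both runt testis libraries lay above both normal ones for let-7g-5p (mean log2 difference 0.60) and let-7i (1.01), with brain at -0.34 and -0.55. Both lay below for let-7k-5p (-0.96), with heart at 2.35. Such separation of the 2 classes in testis was common, at 50% of all tested rows (94 rows higher and 23 lower in runts). These opposite signs were not tested for a single tissue pair. After scaling, the difference between testis and the mean of heart and brain was tested, and it passed for none of the 9 rows (let-7k-5p, limma adjusted p = 0.292). No level of the 4 testis libraries stood apart from the others in the outlier check.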

How the results depend on the processing

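The let-7 calls rest on few libraries. let-7i in heart against brain, called in 4 of 18 settings, left 0 let-7 rows called with no scaling, scaled to the listed total without miR-N444, with a pseudocount of 10, with no filter, with no trend, in a fit of only these 2 tissues and with size class as a term. let-7g-5p in testis against heart, called in 11 of 18, left 0 with no filter, no trend and size class as a term, while 2 let-7 rows were called when scaled without miR-N444, which also called 1 let-7 row in runt against normal testis. The cause of these changes was not tested.

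Scaling moved all rows together. The median log2 fold change over all tested rows was 0.54 with no scaling for runts over the 8 libraries and 0.59 in testis (0.03 and 0.02 as reported), and 0.81 for testis against heart and 0.74 for testis against brain without miR-N444 (0.23 and 0.17 as reported). Signs that turned were of values that were not called. With no scaling these were let-7j-5p (0.06) in testis against heart, let-7f-5p (0.05) in heart against brain, let-7c-5p (0.21), let-7f-5p (0.11) and let-7g-5p (0.56) in runts, let-7j-5p (0.14) in runt testis, and let-7j-5p (0.35) and let-7g-5p (0.07) in the testis difference of the runt effect. Median-of-ratios scaling turned let-7j-5p (0.01) in testis against heart. Scaling without miR-N444 turned let-7j-5p (0.67) and let-7c-5p (0.34) in testis against heart, let-7j-5p (0.24), let-7c-5p (0.13) and let-7k-5p (0.37) in testis against brain, let-7g-5p (0.13) in runts and let-7j-5p (0.02) in the testis difference. No filter turned let-7j-5p (0.28) in testis against heart, let-7j-5p (0.04) and let-7k-5p (0.17) in testis against brain, let-7f-5p (0.12) in heart against brain and let-7c-5p (-0.07) in runt testis. The 50 RPM filter turned let-7j-5p (0.03) in testis against heart, let-7g-5p (0.02) in runts and let-7j-5p (0.03) in the testis difference. A fit of only the compared tissues turned let-7j-5p (0.06) in testis against heart and let-7f-5p (0.07) in heart against brain, and size class as a term turned let-7f-5p (0.11) there.

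Counts over all rows moved too. Testis against heart had 60 called rows with the 50 RPM filter (108 as reported), and testis against brain 76 with that filter and 219 with none (144). Runts over 8 libraries had 1 with no scaling (0). Runt testis had 24 with no scaling, 4 with median-of-ratios scaling, 3 with no filter and 6 at 50 RPM (12). The testis difference had 0 with no scaling or no trend, 16 with no filter and 5 at 50 RPM (3).

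With 1 replicate library left out, the called let-7 rows ran between 0 and 1 in testis against heart, heart against brain, runts over 8 libraries and runt testis. All called rows ran between 92 and 146 in testis against brain, 19 and 68 in heart against brain, 0 and 9 in runts and 2 and 47 in runt testis, and were 0 in the testis difference, which could not be fitted without a heart or brain library. A lone library left in a group is assumed to vary like the others. Log2 fold changes ran over these ranges: in testis against heart let-7j-5p -0.54 to 0.35, let-7f-5p -0.78 to 1.61 and let-7k-5p -0.48 to 1.94, and in testis against brain let-7k-5p -1.83 to 1.21, let-7f-5p -0.73 to 1.69, let-7j-5p -1.38 to 0.52 and let-7c-5p -1.17 to 0.08. In heart against brain they were let-7c-5p -0.66 to 0.56, let-7f-5p -1.10 to 1.35, let-7j-5p -1.19 to 0.67 and let-7k-5p -2.50 to 0.49. In runts they were let-7i -0.30 to 0.51, let-7g-5p -0.50 to 0.34 and let-7f-5p -1.41 to 0.20, with let-7c-5p -0.04 to 0.50 in runt testis and let-7j-5p -0.35 to 0.15 in the testis difference.

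The mean let-7 sum of 59553 RPM was 42184 RPM with each read set counted once and 36556 RPM with the lowest row of each. The last setting was chosen after seeing the data, as were adding let-7d (60347 RPM) and leaving out the cloaca column (54953 RPM, with brain highest). Small intestine was the lowest tissue for the sum in these settings. No paired analysis was possible because the labels do not say which animal each library came from. The sample numbers follow the library names and do not identify animals.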
